A study of Mus musculus with 9 samples.

Results

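The regions described here are stretches of the mouse genome where chromatin immunoprecipitation followed by sequencing (ChIP-seq) placed DPPA4 in E14 cells and in P19 cells, but not reproducibly in 3T3 cells. They numbered 18315 of the 45616 regions merged over the 3 lines (40.2%). A line held a region where peaks of both of its libraries overlapped by at least 1 bp, and overlapping regions of different lines were joined. The regions were chosen by the presence of peaks in the 4 E14 and P19 lists and their absence in the 3T3 lists, so both are described without a test. E14 cells are mouse embryonic stem cells and were kept here without feeders, in 2i medium with serum. P19 is an embryonal carcinoma line, and 3T3 is a fibroblast line that here carried Dppa4 ectopically; both grew in DMEM with serum. Neither the construct nor the amount of DPPA4 in the 3T3 cells is stated in the labels. Each line gave 2 immunoprecipitated libraries made with 1 antibody against DPPA4. No precipitate from cells without Dppa4 was analysed here. Nothing in the labels says whether the 2 came from separate cultures, so their spread may be technical.

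DPPA4 (developmental pluripotency associated 4) is a nuclear protein with a SAP domain, a fold that binds DNA. It is known from the early embryo, embryonic stem cells and germ cells, where it works as a partner of the related protein DPPA2, and it is silent in most somatic cells. In mouse embryonic stem cells the pair is known to sit at promoters that carry both activating and repressive histone marks and to help keep them free of DNA methylation. Fibroblasts normally lack both proteins. The comparison of the lines asks which sites of the pluripotent cells DPPA4 also occupies when it is placed in fibroblasts.

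The lists differed in length and in peak width. The E14 libraries had 61693 and 43443 peaks and the P19 libraries 40011 and 51196, while the 3T3 libraries had 15462 and 17540. The number of reads behind a list is unknown, so a site with no 3T3 peak may be unoccupied or may lie under the limit of detection. The authors' peak score ran from 50 upwards, and many peaks were tied at 3100, called the ceiling here. Each score was expressed as a percentile of its own list, with the strongest peak at 100. A region took the rank of its best peak in a library.

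Most regions of the set were simple. In 97.5% of them 1 E14 region met 1 P19 region, and in 15687 of 18315 (85.7%) each of the 4 E14 and P19 libraries had exactly 1 peak. Among the 7042 regions held by all 3 lines, 68.4% had exactly 1 peak in each of these 4 libraries. The set took up 20322 peaks (32.9%) of the list of E14 replicate 1 and 18591 (42.8%) of E14 replicate 2. It took up 19946 peaks (49.9%) of P19 replicate 1 and 19230 (37.6%) of P19 replicate 2. Only 752 peaks (4.86%) of 3T3 replicate 1 and 2879 (16.4%) of 3T3 replicate 2 lay in it. The regions covered 18.6 Mb in all.

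The midpoints of the E14 and P19 peaks of a region lay close together. The rule asks for overlap, so small distances follow in part from the choice of regions. The best peaks had median widths from 533 to 847 bp in these libraries. The midpoints of the best peaks of an E14 and a P19 library were a median of 45.5 to 64.5 bp apart over the 4 pairs of libraries. Between the 2 libraries of a line the median distance was 57.5 bp in E14 and 43.5 bp in P19. The pairs with E14 replicate 1 had a median of 45.5 bp, between these values, while E14 replicate 2 with P19 replicates 1 and 2 had 64.5 and 60 bp, above both. For E14 replicate 1 and P19 replicate 1, 78.7% of the midpoints lay within 100 bp of each other. In the regions of all 3 lines the medians between E14 and P19 libraries were larger, from 61.5 to 82 bp, and so were those within a line, from 58.5 to 72 bp.

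The regions ranked in the upper part of the E14 and P19 lists, slightly below the regions that 3T3 also held. Their median percentile was 76.5 and 65.7 in the E14 libraries and 65.2 and 73.0 in the P19 libraries. A percentile depends on how many weak peaks its list holds. These medians ran in the order of list length, from 65.2 in a list of 40011 peaks to 76.5 in one of 61693. They therefore do not compare strength between libraries. Regions of all 3 lines had medians of 81.0 and 75.6 in the E14 libraries and 67.4 and 75.5 in the P19 libraries. The set was the lower one in 4 of 4 libraries, and the interquartile ranges overlapped in each library. Regions of all lines also held more peaks each, among which the best was taken. They held 1.25 against 1.11 for the set in E14 replicate 1, and 1.21 against 1.09 in P19 replicate 1. The part of this in the ranks was not tested. Regions of a single line stood lower, with medians of 47.9 and 30.3 in the E14 libraries for E14 alone and of 32.5 and 43.5 in the P19 libraries for P19 alone. The 3 kinds of region differ in how many lists had to hold a peak, and a strong peak passes more lists. Their order therefore follows in part from the choice of regions. Across the set, the line medians averaged 71.1 ± 7.58 points in E14 and 69.1 ± 5.51 points in P19 (SD, n = 2 libraries each). The averages differed by 2.03 points, which is less than either SD. An exact two-sided permutation test over the libraries gave p = 0.667, and 2 libraries against 2 cannot give a p under 0.333. Since the medians ran in the order of list length, no conclusion about strength in the 2 lines is drawn from it.

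**Figure D1:**
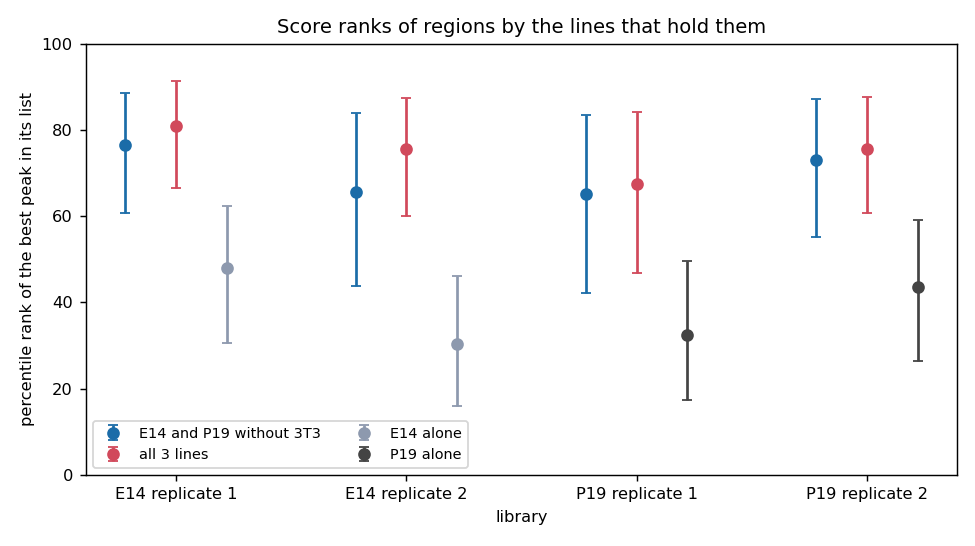
Percentile rank (vertical axis, 100 for the strongest peak of a list) of the best peak of a region in each E14 and P19 library. Points are medians and bars are interquartile ranges. The set of E14 and P19 without 3T3 (blue) lies just under the regions of all 3 lines (red). It lies far above the regions of a single line (grey and black). This order follows in part from the choice of regions.

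Regions at the ceiling were numerous in P19 and rare in E14. Within the set, 100 and 62 regions scored 3100 or more in the E14 libraries, against 811 and 1348 in the P19 libraries. A total of 1371 regions (7.49%) reached the ceiling in at least 1 of the 4 libraries. They were 64.0% of the 2142 shared regions that did so, below the 72.2% without 3T3 among all shared regions. In the set, 50 regions reached the ceiling in all 4 libraries. Over all regions shared by E14 and P19 the share at the ceiling in all 4 was 0.398%, which is 101 regions. The 50 of the set were 0.273% of the set, and the other 51 were 0.724% of the regions of all 3 lines. Of the 101 regions, 49.5% were thus without 3T3, against 72.2% of all shared regions.

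The order of strength was shared by E14 and P19, though less closely than by replicates. Over the 18315 regions the Spearman rank correlation was 0.85 between the E14 libraries and 0.91 between the P19 libraries. It ranged from 0.62 to 0.72 over the 4 pairs of an E14 with a P19 library. These are correlations across regions, which come from the same libraries and are not independent. The mean E14 percentile was within 10 points of the mean P19 percentile in 8957 regions (48.9%). Both E14 libraries ranked above both P19 libraries in 5615 regions (30.7%), and both P19 libraries ranked above both E14 libraries in 4715 (25.7%). The median difference, E14 minus P19, was 1.39 points, and the interquartile range ran from -7.73 to 13.02 points. These counts and differences also depend on the unequal lengths of the lists, whose part was not tested.

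**Figure D2:**
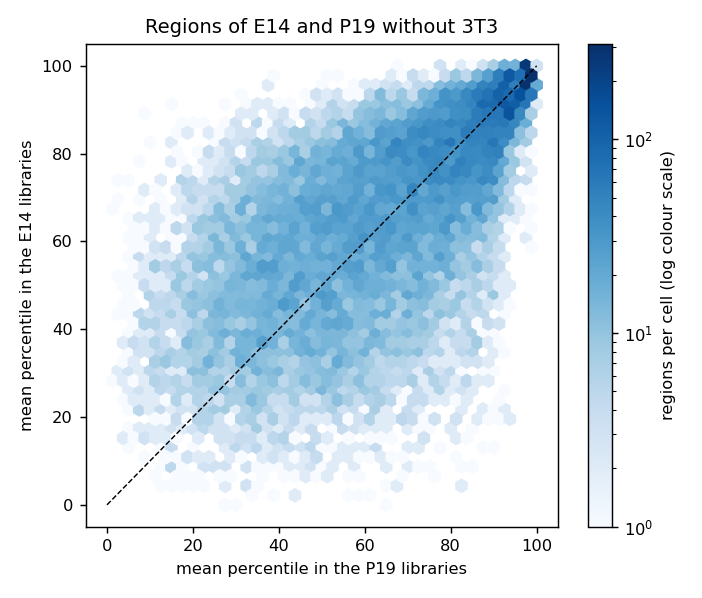
Mean percentile in the E14 libraries (vertical) against the mean percentile in the P19 libraries (horizontal) for the 18315 regions; darker cells hold more regions on a log colour scale, and the dashed line marks equal ranks. Regions crowd at the top right, where both lines rank them high, and thin out towards the 2 far corners.

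A few regions stood at opposite ends of the 2 lines' lists. In 142 regions the E14 mean exceeded the P19 mean by more than 50 points, and in 136 the P19 mean exceeded the E14 mean by as much. The widest gap in favour of E14 was at chromosome 14, 93328833 to 93329995, where peaks scored 776 and 499 in E14 and 52.3 and 60.5 in P19. Next came a region on chromosome 6 from 131204346 to 131204956, with 1022 and 543 in E14 and 52.3 and 76.0 in P19. Another lay on chromosome 2 from 125743541 to 125744543, with 605 and 296 in E14 and 64.1 and 50.2 in P19. In all 3 the P19 peaks stood at or below the 25.5 percentile of their lists, and both E14 peaks at or above the 76.4 percentile. The widest gap in favour of P19 lay on chromosome 9 from 78275139 to 78275889, with 53.0 and 51.8 in E14 and 447 and 625 in P19. A region on chromosome 7 from 52429932 to 52431043 had 53.3 and 51.9 in E14 and 435 and 634 in P19. A region on chromosome 11 from 3416953 to 3418079 had 56.9 and 53.9 in E14 and 482 and 1090 in P19. None of these 6 regions had a 3T3 peak in either library.

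Regions without 3T3 were shorter than regions that 3T3 held. Their median length was 911 bp (interquartile range 741 to 1163). For the regions of all 3 lines, the stretch from the first to the last base of the E14 and P19 regions had a median of 1164 bp (925 to 1505). Gaps between E14 and P19 regions count in it, and only in regions of all lines can a 3T3 region bridge such a gap. Peak width differed in the same direction in each E14 and P19 library. The best peak had a median width of 595 and 847 bp in the E14 libraries for the set, against 724 and 1057 bp for the regions of all lines. In the P19 libraries the medians were 533 and 688 bp for the set, against 633.5 and 840 bp for the regions of all lines.

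Counted by reproducible 3T3 regions, length separated the shared regions more steeply than rank did. Over all 25357 regions shared by E14 and P19, 72.2% were without 3T3, which is the value against which the shares below are read. In the shortest decile of these regions 91.5% were without 3T3 (Wilson 95% interval 90.4 to 92.5), and in the longest decile 49.6% (47.7 to 51.6). By the mean percentile over the 4 libraries, the share went from 85.0% in the lowest decile to 68.7% in the highest and was nearly level, between 66.7% and 70.4%, from decile 5 on. The slope with length was present at every rank. In the weakest quintile by rank, 89.3% of the shortest and 59.1% of the longest quintile were without 3T3. In the strongest quintile by rank these shares were 93.1% and 52.9%, the first over only 72 regions. Counting every 3T3 peak, the slopes with length and with rank were similar. The share free of 3T3 peaks fell from 84.8% to 30.2% over the deciles of length. Over the deciles of rank it fell from 77.8% to 26.4%.

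**Figure D3:**
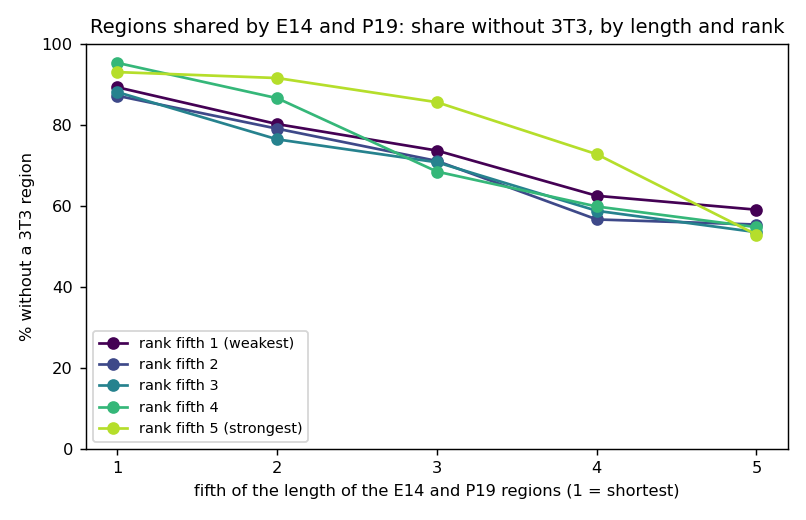
Share of the regions shared by E14 and P19 that are without a reproducible 3T3 region (vertical axis, percent) by quintiles of length (horizontal axis, 1 for the shortest), with a line for each quintile of the mean percentile rank. Length runs from the first to the last base of the E14 and P19 regions. The lines fall from between 87.2% and 95.3% at the left to between 52.9% and 59.1% at the right.

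A long region can meet a 3T3 region more easily than a short one, so the regions were also built from peaks trimmed or extended to 500 bp around their midpoints and sorted by the width deposited. The share without 3T3 was then 88.7% in the quintile with the narrowest peaks and 59.96% in the quintile with the widest, against 88.8% and 57.8% with the peaks as deposited. With replicate 1 of each line alone the shares were 87.9% and 56.9%, and with replicate 2 alone 84.3% and 39.4%. These settings were added after the data were seen. Wider peaks also tend to score higher, and the part of read depth in the widths was not tested.

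In 14797 regions of the set (80.8%, Wilson 95% interval 80.2 to 81.4) neither 3T3 library had a peak. The same 14797 regions were 58.4% of all regions shared by E14 and P19, since the regions of all 3 lines hold 3T3 peaks by definition. In the set, a peak of 3T3 replicate 2 alone lay in 2783 regions and a peak of replicate 1 alone in 701. A further 34 held peaks of both libraries that did not overlap each other. Replicate 2 thus accounted for most single peaks; its peaks in these regions had a median width of 688 bp, against 276 bp for those of replicate 1. The single 3T3 peaks were weak within their own lists. Their median percentile was 21.4 in replicate 1 and 23.4 in replicate 2, against 69.98 and 75.4 for the 3T3 peaks in the regions of all lines. The rule leaves in the set only 3T3 peaks that no peak of the other library overlaps, so this contrast follows in part from the choice. Among the 2817 regions with a peak of 3T3 replicate 2, that peak ranked above the median of its list in 286.

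Weak 3T3 peaks were most frequent where E14 and P19 scored highest. Within the set, a peak of 3T3 replicate 2 lay in 6.22% of the regions from the lowest decile of the mean percentile and in 51.7% of those from the highest decile. For 3T3 replicate 1 the shares were 2.46% and 10.6%. Counting every 3T3 peak, the share of shared regions free of 3T3 therefore dropped to 26.4% in the highest decile, whereas the share without a reproducible 3T3 region was 68.7% there. Of the 50 regions at the ceiling in all 4 E14 and P19 libraries, 42 had a peak of 3T3 replicate 2, 5 had a peak of replicate 1, and 4 had none. The peaks of replicate 2 in these 50 had a median score of 128, in a list in which regions of all lines had a median of 361. This contrast too follows in part from the choice of regions.

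**Figure D4:**
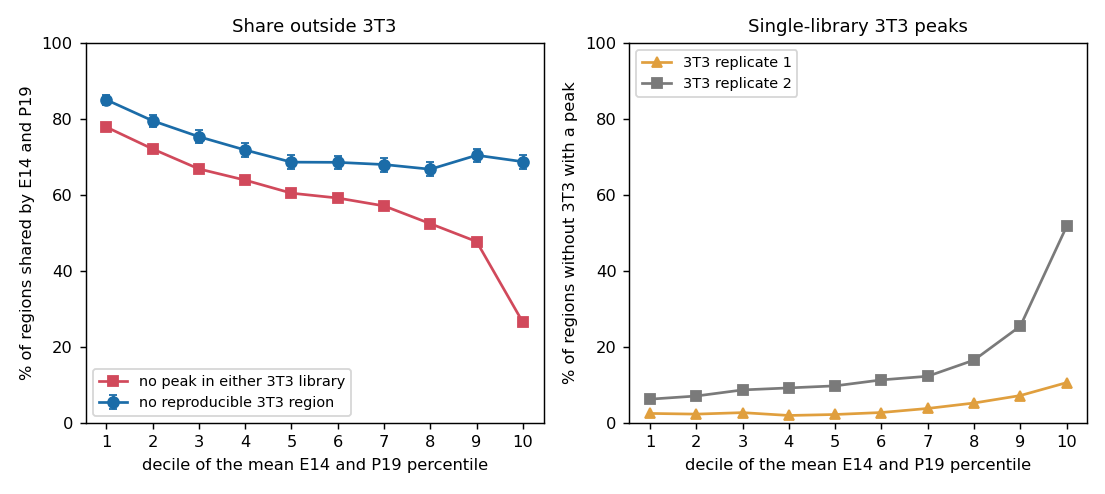
Left, share of the regions shared by E14 and P19 (vertical axis, percent) that have no reproducible 3T3 region (blue, with Wilson 95% intervals) or no peak in either 3T3 library (red), by deciles of the mean E14 and P19 percentile. Right, share of the regions without a reproducible 3T3 region that hold a peak of one 3T3 library; that of replicate 2 climbs to 51.7% in the strongest decile and that of replicate 1 to 10.6%.

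The strongest regions of the set illustrate this. The 5 with the highest mean percentile all had 1 weak 3T3 peak. The first, on chromosome 4 from 10620953 to 10622156, had a mean percentile of 99.4 and a 3T3 peak of 129 in replicate 2. The fourth lay on chromosome 8 from 68233755 to 68236019 and scored 3100 and 3215 in E14 and 3100 in both P19 libraries, with a peak of 103.5 in 3T3 replicate 2. The fifth lay on chromosome 1 from 56154995 to 56156320 and scored 3193 and 3100 in E14 and 3100 in both P19 libraries, with 82.2 in 3T3 replicate 2. Among regions with no 3T3 peak at all, the highest lay on the X chromosome from 86137416 to 86138702, with 3100 and 3184 in E14 and 3100 in both P19 libraries. The next ones scored 3100 in all 4 libraries. One was on chromosome 3 from 17633540 to 17635534, another was on chromosome 2 from 174878272 to 174880049, and another was on chromosome 14 from 43644847 to 43646318. The fifth lay on chromosome 4 from 49479008 to 49480669 and scored 3100 and 2893 in E14 and 3100 in both P19 libraries. These regions are placed in the mm9 assembly and were not assigned to genes.

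The longest regions were also strong. The longest of the set spanned 10493 bp on chromosome 3 from 6297288 to 6307780 and scored 3100 and 2875 in E14, with 1739 and 3100 in P19 and no 3T3 peak. A single peak covered it in 3 of the libraries, while P19 replicate 1 split it into 6. The second spanned 8701 bp on chromosome 12 from 113410447 to 113419147, with 3179 and 3206 in E14, 994 and 1198 in P19 and 80.3 in 3T3 replicate 2. Another spanned 7632 bp on chromosome 10 from 27538047 to 27545678, with 3072 and 2399 in E14, 1904 and 3100 in P19 and no 3T3 peak. At the other end, the region with the lowest mean percentile lay on chromosome 12 from 3825524 to 3826202 and scored 54.5 and 62.6 in E14 and 53.7 and 52.5 in P19. The next ones, on chromosome 11 from 116809459 to 116810219 and from 3763255 to 3763910, scored between 51.3 and 70.2 in these libraries, and the last of them had a peak of 50.7 in 3T3 replicate 2.

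The border of the set depends on whether the 2 3T3 libraries both called a peak. Just inside it, the highest-ranked single 3T3 peak lay on chromosome 8 from 15010686 to 15012221, with 506 in 3T3 replicate 2 and none in replicate 1, beside 447 and 531 in E14 and 516 and 514 in P19. A region on chromosome 5 from 39075356 to 39076492 had 488 in 3T3 replicate 2, and a region on chromosome 2 from 93796339 to 93797952 had 487. Just outside it, the regions of all lines with the weakest 3T3 peaks had barely listed ones. On chromosome 11 from 96268481 to 96269518 the 3T3 scores were 50.2 and 51.0, beside 206 and 177 in E14 and 416 and 325 in P19. On chromosome 18 from 43162213 to 43163855 they were 50.5 and 50.4, beside 1635 and 1457 in E14 and 3100 in both P19 libraries. On chromosome 3 from 8701319 to 8702341 they were 50.3 and 51.4, beside 155 and 410 in E14 and 115 and 319 in P19. These 6 regions were picked as the extremes of the 2 sides, so the order of their 3T3 scores follows from the choice and runs against that of the median percentiles given above.

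The X chromosome held the highest share of regions without 3T3 among the X chromosome and the 19 autosomes. Of its 893 regions shared by E14 and P19, 826 (92.5%, Wilson 95% interval 90.6 to 94.0) were without 3T3, against 71.5% (71.0 to 72.1) on the autosomes and 72.2% over all chromosomes. Position was not used to choose the regions, but there is 1 set of regions and so no test. The pattern was present in each replicate number alone. With replicate 1 of each line the share was 89.3% on X and between 66.6% and 80.5% on single autosomes. With replicate 2 it was 78.0% on X and between 58.6% and 68.1% on single autosomes. It was also present at each level of strength: in the 5 quintiles by rank the share ran from 88.7% to 97.1% on X and from 66.4% to 81.9% on the autosomes.

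Regions of the X chromosome ranked higher than those of the autosomes within the set. Their median percentile was 85.8 and 77.6 in the E14 libraries and 75.1 and 80.6 in the P19 libraries, against 75.9 and 65.0, and 64.6 and 72.5, for the autosomes. Their median length was 913 bp, against 911 bp on the autosomes. Over all ranks together, 3T3 peaks were about as frequent in X regions of the set as in autosomal ones. They lay in 3.39% for replicate 1 and 16.5% for replicate 2, against 4.02% and 15.4% on the autosomes. Below the strongest quintile by rank, X regions of the set held them less often. In quintile 4, 97.1% of shared X regions were without 3T3 and 91.8% were free of 3T3 peaks, against 66.4% and 53.5% on the autosomes. In the strongest quintile these shares were 88.7% and 46.6% on X, against 68.0% and 36.1%. The X chromosome took 2.61% and 2.99% of the E14 peaks, 2.92% and 2.78% of the P19 peaks and 1.42% and 2.33% of the 3T3 peaks. The 2 3T3 libraries thus differed from each other by more than 3T3 replicate 2 differed from any E14 or P19 library, and copy number of the chromosome in the lines was not tested. Without 3T3 replicate 1 the share without 3T3 was 77.3% on X and 61.1% over all chromosomes.

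**Figure D5:**
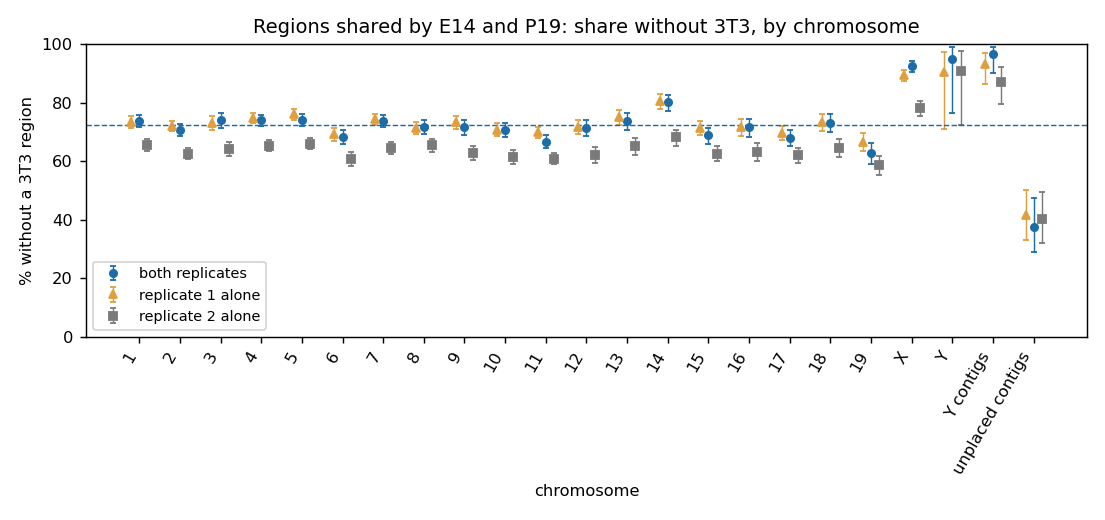
Share of the regions shared by E14 and P19 that are without a 3T3 region (vertical axis, percent) on each chromosome, from both replicates (circles) and from replicate 1 or 2 of each line alone (triangles and squares), with Wilson 95% intervals. The dashed line is the share over all chromosomes, 72.2%; the X chromosome lies above every autosome in all 3 versions, and the unplaced contigs lie below.

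Among the autosomes the share ranged from 62.7% on chromosome 19 to 80.1% on chromosome 14. These were the lowest and highest autosomes with replicate 1 alone, at 66.6% and 80.5%, and with replicate 2 alone, at 58.6% and 68.1%. Of the few regions of the Y chromosome and its contigs, 19 of 20 and 83 of 86 were without 3T3. Unplaced contigs of other chromosomes held 38 regions of the set among 101 shared ones (37.6%, interval 28.8 to 47.4), the lowest share of any class.

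By the median, regions of the set lay closer to another region shared by E14 and P19 than to a 3T3 region. This order follows in part from the rule, which bars overlap with a 3T3 region, and from the counts. The autosomes held 10945 reproducible 3T3 regions and 24257 regions shared by E14 and P19. From a region of the set, the nearest reproducible 3T3 region was a median of 82.1 kb away (interquartile range 21.3 to 281 kb). It was within 10 kb for 14.6% and more than 1 Mb away for 6.24% of the 18308 regions on a chromosome with a 3T3 region. The nearest other region shared by E14 and P19 was a median of 25.1 kb away for the set and 25.4 kb for regions of all lines. That neighbour was without 3T3 for 77.2% of the set (76.6 to 77.8), against 65.3% (64.2 to 66.4) of the regions of all lines. The share without 3T3 was 81.9% in bins of 1 Mb with 1 to 4 shared regions, 77.1% with 5 to 9, 69.2% with 10 to 19, 67.5% with 20 to 39 and 68.1% with 40 or more. On the autosomes alone it was 80.1% in the sparsest bins and 69.2% in the densest.

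Runs of consecutive regions without 3T3 in between reached 43 regions. Of 5650 runs, 2210 held a single region, and 321 runs of 10 or more held 4798 regions (26.2% of the set). The longest run lay on chromosome 14 from 87932748 to 99137916. Its 43 regions over 11.2 Mb stood beside 17 regions of E14 alone and 1 of P19 alone, with 1 and 3 peaks of the 3T3 libraries. The second, with 41 regions over 4.38 Mb, lay at the start of chromosome 14 from 3015187 to 7392486, beside 37 regions of E14 alone and 14 of P19 alone, with 1 and 14 peaks of the 3T3 libraries. Next came 39 regions over 8.36 Mb of the X chromosome from 22156477 to 30518440, with 2 and 5 peaks of the 3T3 libraries. A run on chromosome 12 from 60418598 to 65988949 also held 39, with 1 and 8 peaks of the 3T3 libraries. Of the 12 longest runs, 6 lay on the X chromosome, and of the 52 runs of 20 or more regions, 8 did. The X chromosome held 4.51% of the set.

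The bins with the most regions of the set also held regions of all lines. Chromosome 10 held 74 regions of the set and 44 of all lines between 79 and 80 Mb, and 70 and 44 between 80 and 81 Mb. The share without 3T3 in these bins was 62.7% and 61.4%, below that over all chromosomes. Chromosome 4 between 140 and 141 Mb held 56 regions of the set and 5 of all lines (91.8%). Over the 12 fullest bins the share ran from 57.7% to 91.8%, on both sides of the 72.2% over all chromosomes. In all, 750 of the 2625 bins with a shared region held regions of the set and none of all lines. The fullest of these was on chromosome 7 between 14 and 15 Mb, with 14 regions.

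Membership of the set moved with the lists used. Leaving out an E14 or a P19 library relaxes the demand for 2 overlapping peaks, so nearly all members stay by the rule itself and others join. Between 18285 and 18311 of the 18315 members stayed. The set then held 19050 regions without E14 replicate 1 and 21290 without E14 replicate 2. It held 22649 without P19 replicate 1 and 19289 without P19 replicate 2. Without 3T3 replicate 1, so that replicate 2 alone stood for 3T3, 2817 regions gained a 3T3 region and 15498 (84.6%) stayed. Without 3T3 replicate 2, 735 gained one and 17580 (96.0%) stayed. When the other lists were cut to 15462 peaks by score, the length of the shortest one, 6326 regions (34.5%) stayed. Another 4376 kept regions of fewer lines, and 7613 kept none. Limiting a list only removes peaks, so no region of the set could gain 3T3 there. Of the 7042 regions of all lines, 124 (1.76%) became regions of E14 and P19 without 3T3. The share of the shared regions that were without 3T3 was 70.3% with the limited lists, against 72.2% with all peaks.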

How the data were processed

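DPPA4 was immunoprecipitated from sonicated nuclei of E14, P19 and 3T3 cells, with 2 libraries per line and Nextera library preparation, per the labels' protocols. Tools listed in the submitters' processing notes are BWA 0.7.13-r1126 and SAMtools 1.3, besides CASAVA 1.8 and bcl2fastq 1.8, and the build listed is mm9. The authors called peaks in each library; peak names begin with MACS. For the caller, the version, the threshold and the use of the 3 input libraries were not given in the sources used here. Each deposited list gives position, name and a score per peak; the score is the authors' own, and its scale is not named.

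Peaks were taken to overlap from 1 bp. Reproducible regions of a line were unions of overlapping peaks of its libraries, and overlapping regions of different lines were joined. Ranks within a list used averaged ties. Groups came from the cell line and number in the titles. Wilson 95% intervals take regions as independent and hold counting error only. Computation ran in Python 3.11.15 with pandas 2.3.3 and NumPy 2.4.6, tests in SciPy 1.17.1 and plots in Matplotlib 3.10.9, and the region code was tested on simulated data. Alternatives were 50% overlap, the best-scoring 50% of each list, lists of equal length, autosomes alone, peaks of either library, exclusion by any 3T3 peak, peaks of 500 bp, leaving out each library, and a replicate block. Named regions followed a rule: highest, lowest, longest, most different between E14 and P19, nearest the border, longest runs and fullest bins. The set, the rules and the lists were chosen with earlier results of these data known. The gene and promoter tables at hand belong to GRCm38, so no region was assigned to a gene and no sequence is shown. Coordinates are 1-based in mm9.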

Additional observations from a re-analysis of the deposited data

How the results depend on the processing

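The number of regions without 3T3 was 18315. It fell to 11181 with the best-scoring 50% of each list and to 6454 with lists of equal length, since fewer peaks entered, and stayed within 1.5-fold elsewhere; leaving out a library gave 15498 to 22649. The share of shared regions without 3T3 (72.2%) was 79.6% with the best-scoring 50% and 58.4% where any 3T3 peak excluded a region, and 61.1% to 74.7% with a library left out. The share free of 3T3 peaks (80.8%) was 92.7% with the best-scoring 50%, 71.9% with lists of equal length, and 80.9% to 82.9% with an E14 or P19 library left out; it was 80.5% with 50% overlap and with peaks of 500 bp and 80.8% on the autosomes alone, and settings that use every 3T3 peak or a single 3T3 library fix it by construction. The median length (911 bp) was 1071 bp, 1107 bp, 744 bp and 610 bp with the best-scoring 50%, lists of equal length, peaks of either library and peaks of 500 bp, and 725 to 906 bp with a library left out. The mean rank correlation of E14 with P19 (0.66) was 0.63, 0.59, 0.62 and 0.60 with the best-scoring 50%, lists of equal length, peaks of either library and exclusion by any 3T3 peak, and 0.61 to 0.69 with a library left out. The share without 3T3 on the X chromosome (92.5%) was 77.4% with peaks of either library, 74.5% with exclusion by any 3T3 peak, and 77.3% to 92.5% with a library left out. With the replicate block (regions built within each replicate number, then averaged), these values were 21826.5 regions, 68.5%, 710 bp, 0.65 and 83.7% on X; no label ties equal numbers to a common origin. Spread was taken from the values of replicate 1 alone and replicate 2 alone. The cause of each shift was not tested except where fewer or shorter peaks make it. Depth is unknown, so absence from 3T3 means no peak listed. Autosomes alone give no value for X, and planned comparisons with genes and promoters were not run because the tables at hand belong to another assembly.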

Other observations

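Within the set, the balance of E14 and P19 ranks varied little between chromosomes. The median difference of mean percentiles, E14 minus P19, was negative on chromosome 11 alone among the 19 autosomes and X, at -1.87 points over 1254 regions, with 44.7% of them ranked higher in E14. It was highest among them on chromosome 14, at 2.99 points over 671 regions, with 60.95% ranked higher in E14. On the contigs of the Y chromosome 84.3% of 83 regions ranked higher in E14, with a median difference of 4.78 points. These are descriptions across regions of the same 4 libraries, with no test, and their level also depends on the unequal lengths of the lists.

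Regions ranked far apart by E14 and P19 differed in how often they held a weak 3T3 peak, in an order that the 3T3 libraries shared only in part. A peak of 3T3 replicate 2 lay in 4.23% of the 142 regions where E14 ranked more than 50 points above P19, in 14.7% of the 136 where P19 ranked as far above E14, and in 20.6% of the 8957 within 10 points of each other. For 3T3 replicate 1 the shares were 2.82%, 6.62% and 5.27%, so the last 2 groups stood in the other order. Over the whole set the shares were 15.4% for replicate 2 and 4.01% for replicate 1. The group within 10 points ranked highest in the E14 lists, with median percentiles of 83.5 and 77.5.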
